A study of Mus musculus with 8 samples.

Results

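The genes described are those for the subunits of the oxidative phosphorylation complexes, as transcribed in neonatal mouse brain. They were chosen by a rule on gene name alone, which was set with earlier results of these data known. The names were those beginning Nduf with a subunit letter and number, Sdha to Sdhd, Uqcr, Cox4 to Cox8, Atp5, and the mt-Nd, mt-Co, mt-Atp and mt-Cytb genes of the mitochondrial genome. A name ending in -ps, which marks a pseudogene, was left out, and this removed 1 gene. Of 32285 genes in the count table, 97 met this rule, 84 of them nuclear and 13 mitochondrial. Complex I (NADH dehydrogenase) had 35 nuclear and 7 mitochondrial genes, complex II (succinate dehydrogenase) 4 nuclear genes, and complex III (ubiquinol-cytochrome c reductase) 8 nuclear and 1 mitochondrial gene. Complex IV (cytochrome c oxidase) had 20 nuclear and 3 mitochondrial genes, and complex V (ATP synthase) 17 and 2.

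Poly(A) RNA of whole brain tissue from neonatal C57BL/6 mice was counted per gene in 8 libraries. The 4 control libraries came from offspring of naturally mated wild-type parents, and their sex is not labelled. The 4 ICSI-F2 libraries came from males that were sired, by natural mating, by males born after intracytoplasmic sperm injection (ICSI), in which a sperm is placed directly into an egg. No transgene, drug or deletion is named for either group, and the exact postnatal age is not given. Sample codes carry a letter of unstated meaning, and each letter covers 2 libraries. Among controls it is A in replicates 1 and 2 and D in replicates 3 and 4. Among ICSI-F2 samples, replicates 1 and 2 carry F and the others G. The labels do not say that the samples of a group were separate animals, and the series text speaks of a control neonate in the singular. The p-values therefore measure only the spread between these samples, which may be technical. Library totals ran from 12968175 to 16551511 counts.

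Oxidative phosphorylation takes electrons from NADH and succinate, passes them through complexes I to IV to oxygen, and uses the proton gradient that complexes I, III and IV build to make ATP in complex V. Most subunits are nuclear genes imported into mitochondria as proteins, whereas a small set at the core of complexes I, III, IV and V is read from the mitochondrial genome. Nuclear respiratory factors, among them NRF1 and the ETS factor GABP, are known to activate many of the nuclear genes. Neurons depend on this pathway for synaptic and ion-pumping ATP, and brain use of it grows after birth.

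Several stretches of sequence bear on how far the counts can be read. The first set is of reads' length, 76 bases, from 3 genes of the mitochondrial genome (mm10, plus strand, 5′ to 3′), and is shown because nuclear copies of part of this genome can make a read unplaceable. Capitals mark bases that lie in a stretch of this length found unchanged in a nuclear pseudogene.
mt-Co2, chrM:7112-7187: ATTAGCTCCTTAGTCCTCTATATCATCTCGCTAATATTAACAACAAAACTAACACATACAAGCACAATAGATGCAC
mt-Nd4, chrM:11005-11080: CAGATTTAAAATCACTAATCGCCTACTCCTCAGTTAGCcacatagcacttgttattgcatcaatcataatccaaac
mt-Nd1, chrM:2850-2925: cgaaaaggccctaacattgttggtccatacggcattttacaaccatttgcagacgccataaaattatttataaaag
The stretch of mt-Co2, a core subunit gene of complex IV, was wholly shared, as were 681 of the 684 bases of that gene. The stretch of mt-Nd4, a core subunit gene of complex I, crosses the end of the copy, which covers its first 876 of 1378 bases. In mt-Nd1, another complex I core gene, no stretch was shared. The second set gives the 150 bases upstream of the start of 3 nuclear genes (RefSeq sequence, build GRCm38.p6, all on the minus strand, 5′ to 3′), with the core letters of the NRF1 motif in capitals. They are Sdha, the flavoprotein of complex II, Cox6a1, the main form of a small complex IV subunit, and Ndufb4, an accessory subunit of complex I.
Sdha, chr13:74350241-74350390: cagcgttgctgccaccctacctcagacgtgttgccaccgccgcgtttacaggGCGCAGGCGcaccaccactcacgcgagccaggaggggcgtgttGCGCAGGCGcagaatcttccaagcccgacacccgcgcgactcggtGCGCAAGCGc
Cox6a1, chr5:115348959-115349108: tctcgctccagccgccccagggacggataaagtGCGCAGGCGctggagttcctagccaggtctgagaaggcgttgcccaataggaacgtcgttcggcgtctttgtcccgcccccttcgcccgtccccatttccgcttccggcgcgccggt
Ndufb4, chr16:37654369-37654518: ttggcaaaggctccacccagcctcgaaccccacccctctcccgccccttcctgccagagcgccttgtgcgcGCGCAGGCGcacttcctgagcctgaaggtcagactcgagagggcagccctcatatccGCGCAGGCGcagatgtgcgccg
These 3 promoters hold the motif 3, 1 and 2 times, as GCGCAGGCG or, in Sdha also, as GCGCAAGCG.

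In control brain the level of each subunit was first compared per length. Counts were divided by the bases of all exons of the gene and scaled to the same sum in each library, which gives TPM, a level per length, and the mean ± SD over the 4 controls follows. The catalytic ring of ATP synthase had the highest nuclear levels of complex V, with 656 ± 25.4 TPM for Atp5b (the β subunit) and 645 ± 23.8 TPM for Atp5a1 (the α subunit). By this length these neighbours did not differ beyond their spread. In complex IV the small subunit genes Cox6b1, Cox8a and Cox6a1 stood at 687 ± 18.8, 566 ± 17.6 and 522 ± 34.9 TPM, and Cox4i1, whose protein carries a regulatory nucleotide site, at 413 ± 30.3 TPM. Cox8a and Cox6a1 lay within their joint spread.

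The highest nuclear levels of complexes I, II and III were lower than those of complexes IV and V. Succinate dehydrogenase genes stood at 151 ± 6.70 TPM for the membrane anchor Sdhd, 140.4 ± 6.81 TPM for the flavoprotein Sdha, 125 ± 1.18 TPM for the iron-sulfur subunit Sdhb and 86.7 ± 3.797 TPM for the other anchor, Sdhc. Of these, Sdhd and Sdha overlapped in their spread. In complex III the nuclear range was 99.7 ± 8.49 TPM for Uqcrq, a small subunit, to 294 ± 32.2 TPM for Uqcr11, another small subunit. In complex I the nuclear range was 22.6 ± 2.82 TPM for Ndufb7 to 302 ± 14.7 TPM for Ndufc2, both accessory subunits of the membrane arm. The median over the 80 nuclear genes that passed the filter for testing was 126 TPM.

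The length used changes some of these places. With the principal transcript of each gene in place of all exons, a choice made after the data were seen, the median was 151 TPM. Ndufb7 then stood at 111 TPM and Atp5l, subunit g of ATP synthase, at 249 TPM instead of 31.2 ± 1.79 TPM. The lowest nuclear level of complex V then belonged to Atp5g1, at 42.7 TPM, and the lowest of complex I to Ndufb2, at 29.2 TPM. The highest nuclear level of complex I passed from Ndufc2, then at 225 TPM, to Ndufb8, at 287 TPM instead of 92.2 ± 6.65 TPM. Atp5b remained first in complex V, at 977 ± 41.4 TPM, and then differed beyond the spread from Atp5a1, at 551 ± 22.2 TPM. In complex IV the highest nuclear level passed to Cox4i1, at 563 ± 43.3 TPM. Cox6b1, at 530 ± 14.8 TPM, lay within their joint spread. The order Sdhd, Sdha, Sdhb became Sdhb, Sdha, Sdhd.

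**Figure D1:**
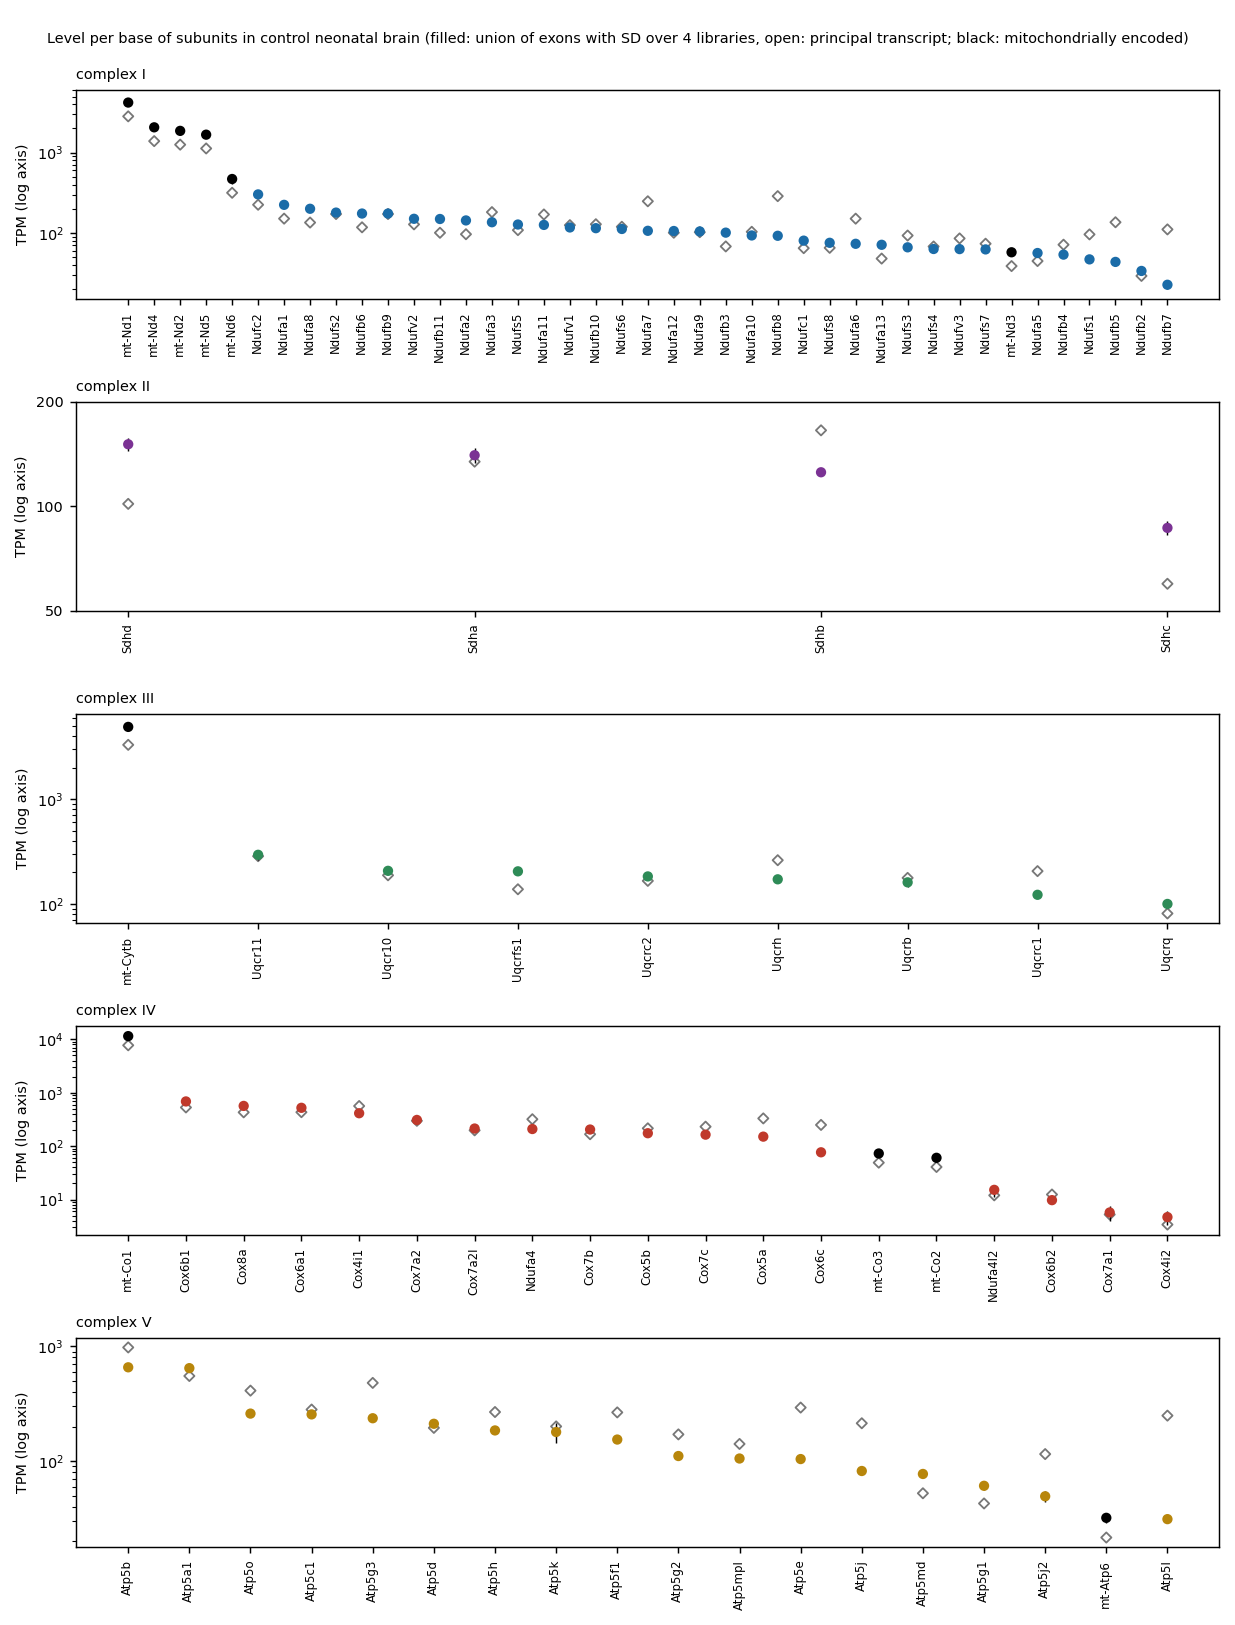
Level of the 91 tested subunit genes in control brain, 1 panel per complex, in TPM on a log axis; filled points are the mean over 4 libraries by all exons with SD bars, open diamonds the mean by the principal transcript, and black points mitochondrially encoded genes. By all exons mt-Co1 is highest, mt-Cytb, mt-Nd1, mt-Nd4, mt-Nd2 and mt-Nd5 follow at 4927 to 1674 TPM, above every nuclear gene, and tissue-specific forms such as Cox4i2 and Cox7a1 lie at 4.69 and 5.72 TPM.

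Several subunits come as paralogs, of which one is known as the general form and another as a form of muscle, testis, lung or low oxygen. Neonatal brain had mostly the general form in each such set of complex IV. By length of the principal transcript, Cox4i1 made up 99.4 ± 0.139% of the Cox4i pair in controls and Cox4i2, a form of lung and low oxygen, 0.591 ± 0.139%. Cox6a2 and Cox8b, forms of heart and skeletal muscle, had 16 counts and 0 counts over all 8 libraries. Cox7b2 and Cox8c, forms of testis, had 6 and 0 counts. A count of 0 over 8 libraries allows up to 0.0256 CPM (3 counts), and this limit covers counting error only. Of 84 nuclear genes, only Cox6a2, Cox7b2, Cox8b and Cox8c did not pass the filter. Striated muscle markers were low, at 2.84 to 5.48 CPM summed over 7 genes.

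The share of a minor form depended on the length used. By all exons Cox4i2 was 1.11 ± 0.259% of its pair, Ndufa4l2 6.75 ± 1.49% and Cox6b2 1.39 ± 0.176%; the other values here are by the principal transcript unless stated. The other paralog sets were more mixed. Cox6b2, known from testis, was 2.28 ± 0.286% of the Cox6b pair, and Ndufa4l2, known to be induced by low oxygen, was 3.62 ± 0.8285% of its pair with Ndufa4. Cox7a1, a muscle form, was 1.05 ± 0.347% of its trio in controls and 1.48 ± 0.314% in ICSI-F2. Cox7a2, the general form, was 59.4 ± 2.95% of that trio and Cox7a2l, known for its part in supercomplexes, 39.5 ± 2.84%. Subunit c of ATP synthase, which forms the rotor ring, is encoded by 3 genes for an identical mature protein, and Atp5g3 gave 69.2 ± 0.971% of their level, Atp5g2 24.6 ± 1.07% and Atp5g1 6.17 ± 0.519%. For Atp5g2, 35.7% of read-length windows also occur in other genes, so its share is uncertain, and by all exons the share of Atp5g1 was 14.9 ± 1.16%.

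The 13 mitochondrial genes had mean control levels from 0.111 to 3729.8 CPM. mt-Co1, the catalytic core of complex IV, had 3826, 3654, 3587 and 3852 CPM in control replicates 1 to 4 and 3566, 3379, 3490.1 and 3679 CPM in ICSI-F2 replicates 1 to 4. mt-Cytb, the cytochrome b of complex III, ran from 1074 to 1299 CPM in controls and from 1188 to 1289.5 CPM in ICSI-F2. mt-Nd1 ran from 756 to 929.5 and from 841 to 986 CPM in the same order. mt-Nd4 and mt-Nd5, proton-pumping subunits of complex I, lay between 556 and 712 CPM in all 8 libraries, and mt-Nd2, another such subunit, between 357 and 500.2 CPM. mt-Nd6, which alone among these genes is read from the other strand, lay between 42.9 and 68.3 CPM.

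The other 6 mitochondrial genes had few counts, although several encode core subunits. mt-Co3 and mt-Co2 of complex IV had 11.99 ± 1.304 and 8.69 ± 1.45 CPM in controls, mt-Atp6, the proton channel subunit of complex V, 4.59 ± 0.401 CPM, mt-Nd3 4.21 ± 0.448 CPM and mt-Nd4l 0.209 ± 0.0684 CPM. Of their read-length windows, 99.9%, 99.5%, 99.5%, 97.8% and 98.6% were found unchanged in annotated nuclear pseudogenes on chromosome 1. These copies lie side by side on the minus strand, from Gm10222 (chr1:24612407-24612700) to Gm28661 (chr1:24614885-24615565), and none of them has a row in the count table. The levels of these 5 genes are therefore uncertain, as is any ratio between them and other genes; the sources used here do not say how reads with several placements were handled. mt-Atp8, a further subunit of complex V, had 0 to 0.383 CPM, with no window found in annotated transcripts of other genes. Sequence without an annotated transcript, such as any between these copies, was not searched, so its level is uncertain too.

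The genes shared in part or not at all did not order by the shared percentage. In mt-Nd4, 61.5% of windows were shared with Gm28439 (chr1:24611535-24612410). The gene had 7.05 counts per window in an average control, or 18.3 when divided by its unshared windows only. In mt-Co1, 39.4% of windows were shared, mostly with Gm29216 on chromosome 1 and Gm13340 on chromosome 2, and it had 38.8 counts per window, the highest of the 13 genes. mt-Nd2 and mt-Nd5, with 5.61% and 1.54% shared, had 6.5 and 5.63 counts per window, or 6.89 and 5.72 by unshared windows only. mt-Nd1, mt-Cytb and mt-Nd6, with no window shared, had 14.7, 17.02 and 1.78. Among the 84 nuclear genes, none shared over 50% of its windows with genes elsewhere in the genome, 9 shared over 10%, and 58 shared none. Windows shared with overlapping genes at the same place are not in these counts. They exceeded 10% in 6 genes, Atp5o, Ndufb6, Ndufa13, Uqcrc2, Ndufb9 and Ndufb5, and 46 genes had no window of either kind. These shares count only exact matches to annotated transcripts, so they are lower bounds.

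**Figure D2:**
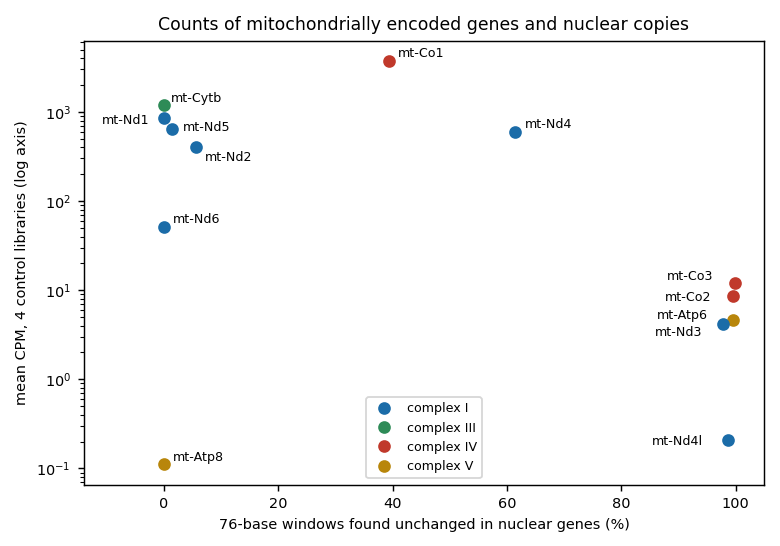
Mean CPM over 4 control libraries (log axis) of the 13 mitochondrially encoded genes against the percent of their 76-base windows found unchanged in nuclear genes, coloured by complex. The 5 genes at 97.8% or more lie at 11.99 CPM or less. mt-Atp8, with none found in annotated transcripts, the only sequence searched, lies at 0.111 CPM.

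The main comparison asked whether brain of ICSI-F2 males differed from control brain in these genes. No subunit gene passed edgeR's quasi-likelihood test at an adjusted p of 0.05, in either direction, among 91 tested. Over all 15565 genes tested, 1 passed (0.00642%), and it was higher in ICSI-F2. At an unadjusted p under 0.05 there were 7 members (7.69%), against 7.3% of all genes, so the members' share was near the background. Of these 7 members 5 had a positive fold change and 2 a negative one. Of the 1136 genes of the whole table at that p, 611 had a positive and 525 a negative one. These 611 and 525 are 3.93% and 3.37% of all genes tested. The groups did not overlap for 2 members, against 3.97% of all genes. DESeq2 also called 0 members and gave 8 (8.79%) at an unadjusted p under 0.05, against 5.09% of all genes. Of the 6 genes not tested, 4 were the tissue forms above and 2 were mt-Nd4l and mt-Atp8.

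The estimates were small and precise. For 69 of 91 members (75.8%) the whole 95% interval of the fold change lay within 1.2-fold of no change, against 57.3% of all genes. For 89 (97.8%) it lay within 1.5-fold, against 83.8% of all genes. The exceptions to the wider bound were Cox4i2 and Cox7a1, the 2 members with the lowest tested levels. The median log2 fold change was 0.032 over the members, with 61 above 0 and 30 below, and 0.028 over the nuclear members, against 0.00065 over all genes. Those above 0 were 67.0% of members, against 50.4% of all genes. By complex, the nuclear median was 0.049 in complex I (25 above, 10 below), 0.016 in complex II (3 and 1), 0.021 in complex III (5 and 3), 0.039 in complex IV (9 and 7) and 0.0095 in complex V (11 and 6). Within complex I, 4 of 7 core subunits, which carry the flavin and iron-sulfur centres, were above 0, as were 21 of 28 accessory subunits.

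**Figure D3:**
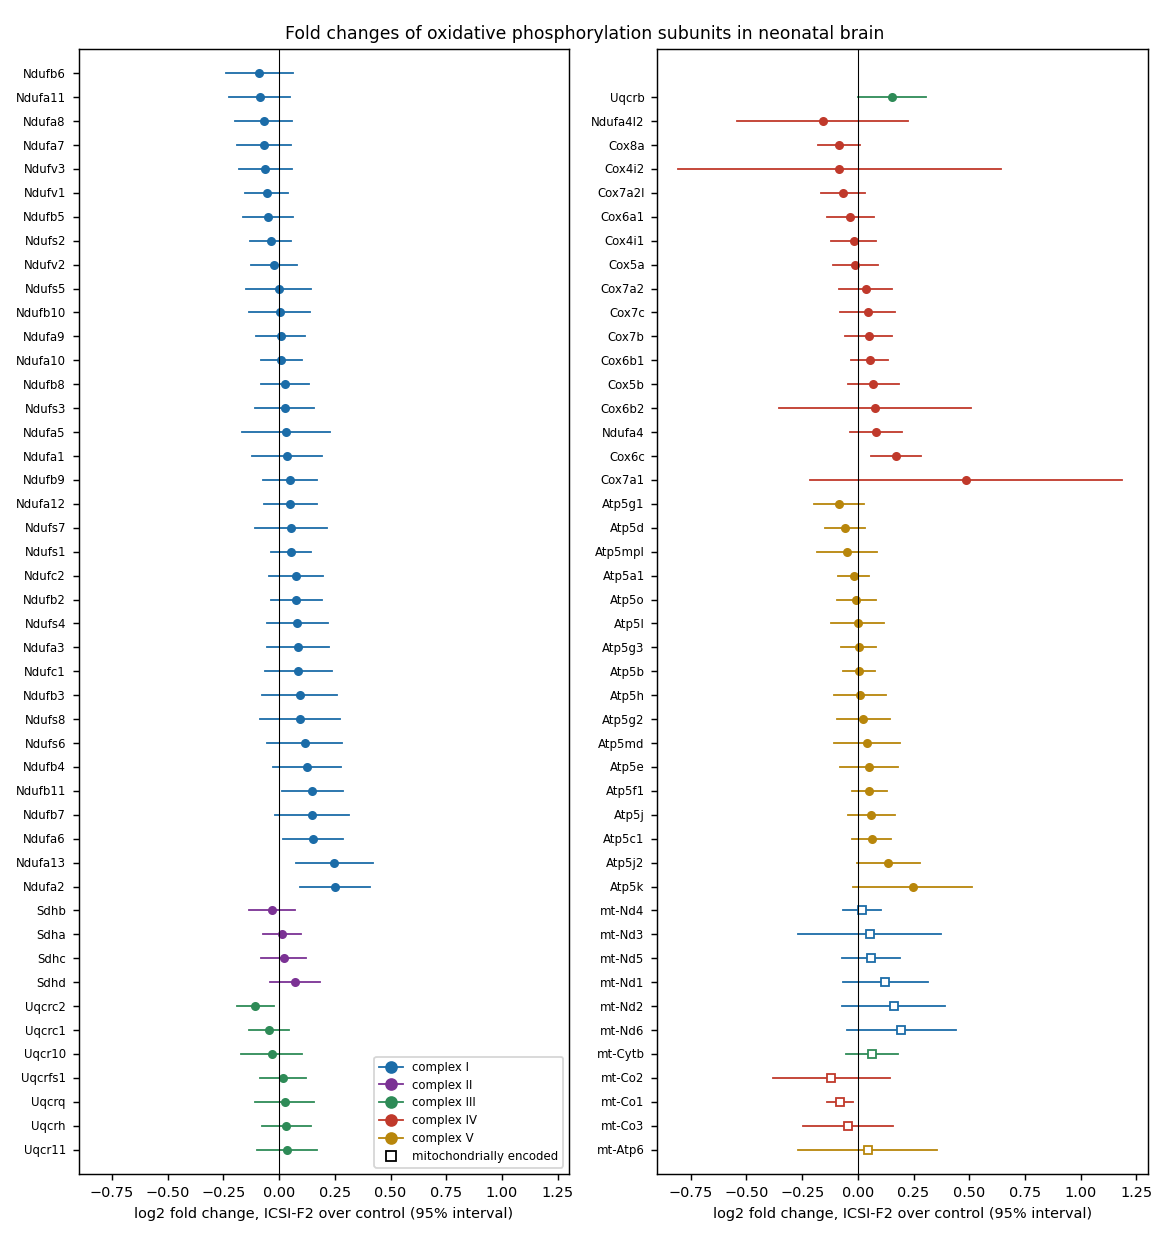
Log2 fold change of ICSI-F2 over control with 95% interval for the 91 tested members, ordered by complex (colours) with mitochondrially encoded genes as open squares. Estimates run from -0.16 to 0.48, and 69 intervals lie within 1.2-fold of no change.

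In complex I the smallest p belonged to Ndufa2, an accessory subunit of the arm that binds NADH. It had 18.0, 17.7, 17.5 and 15.7 CPM in control replicates 1 to 4 and 20.6, 19.9, 21.1 and 20.4 CPM in ICSI-F2 replicates 1 to 4. Every ICSI-F2 value exceeded every control value. The log2 fold change was 0.25 (SE 0.077), with an unadjusted p of 0.00301 and an edgeR adjusted p of 0.515. Groups of this kind, with no overlap and ICSI-F2 above, made up 1.97% of all genes tested, and Ndufa2 was the only such member.

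Ndufa13, also known as GRIM-19, lies where the matrix arm of complex I meets its membrane arm. Its CPM were 19.2, 21.3, 17.9 and 16.6 in controls and 21.6, 23.5, 19.7 and 24.5 in ICSI-F2. The groups overlapped, since ICSI-F2 replicate 3 lay below control replicate 2. The log2 fold change was 0.25 (SE 0.085, edgeR adjusted p = 0.539). Ndufa6, a small subunit of the matrix arm with an LYR motif, had 27.8 ± 1.65 CPM in controls and 30.9 ± 1.53 CPM in ICSI-F2, a log2 fold change of 0.15 (adjusted p = 0.628). Ndufb11, an accessory subunit of the membrane arm, had 28.5 ± 2.06 and 31.7 ± 1.45 CPM, a log2 fold change of 0.15 (adjusted p = 0.650). Both pairs of groups overlapped. Exons of Ndufa2, Ndufa13 and Ndufb11 overlap genes on the opposite strand (Tmco6, Tssk6 and Rbm10) over 11.5%, 30.0% and 12.9% of their bases. The strand setting of the counting is not given. It is therefore uncertain whether reads over these bases were counted for the member, the partner or neither.

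Complex II genes had narrow intervals around no change. The smallest p belonged to Sdhd, with 37.8, 41.3, 39.2 and 38.1 CPM in controls and 42.1, 39.6, 41.2 and 41.4 CPM in ICSI-F2. The log2 fold change was 0.071 (SE 0.055, edgeR adjusted p = 0.812). Sdhb and Sdhc had log2 fold changes of -0.033 and 0.021, and Sdha 0.011. All 4 intervals lay within 1.2-fold of no change. In complex II, therefore, a difference above that size was outside the interval for every gene.

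In complex III the smallest p belonged to Uqcrc2, a core protein of the matrix side. It had 99.7, 95.6, 100.1 and 97.4 CPM in controls and 89.9, 89.0, 95.3 and 90.7 CPM in ICSI-F2. All 4 ICSI-F2 libraries lay below all 4 controls, which was so for 2.0% of all genes tested and for no other member. The log2 fold change was -0.11 (SE 0.041, unadjusted p = 0.0137, edgeR adjusted p = 0.565). Uqcrc1, the other core protein, had 106 ± 6.32 and 103 ± 3.06 CPM, a log2 fold change of -0.045 (adjusted p = 0.860). Uqcrb, a small quinone-binding subunit, had a positive log2 fold change of 0.15 (adjusted p = 0.684), and its lowest value, 24.7 CPM in control replicate 4, stood apart from 30.7 to 36.4 CPM in the other 7 libraries. Exons of Uqcrc2 overlap Pdzd9 on the opposite strand over 19.7% of their bases.

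In complex IV the smallest p belonged to Cox6c, a small nuclear subunit in the membrane. It had 63.1, 59.7, 55.3 and 52.1 CPM in controls and 62.3, 67.0, 63.1 and 67.0 CPM in ICSI-F2. Control replicate 1 reached the ICSI-F2 range, and the other 3 controls lay below it. The log2 fold change was 0.17 (SE 0.055, unadjusted p = 0.00437, edgeR adjusted p = 0.539). Cox8a, the general form of another small subunit, had 73.8 ± 3.27 and 69.7 ± 1.76 CPM, a log2 fold change of -0.084 (adjusted p = 0.721). Cox7a1 had the highest estimate of all members, 0.48 on the log2 scale, but at 0.644 ± 0.201 and 0.911 ± 0.191 CPM its interval ran from -0.22 to 1.18 (adjusted p = 0.791).

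In complex V no member had an unadjusted p under 0.05. Atp5k, subunit e, which is needed for ATP synthase dimers, had 26.9, 25.4, 24.3 and 16.5 CPM in controls and 28.4, 27.0, 29.5 and 26.0 CPM in ICSI-F2. Control replicate 4 lay far below the other 7 libraries, which overlapped. The log2 fold change was 0.25 (SE 0.12, edgeR adjusted p = 0.705). Atp5j2, subunit f, had 34.4 ± 3.95 and 37.8 ± 1.61 CPM (log2 fold change 0.14, adjusted p = 0.692), and Atp5g1 63.0 ± 5.48 and 59.3 ± 1.21 CPM (log2 fold change -0.087, adjusted p = 0.748). The catalytic subunit Atp5b, with 585 ± 31.0 and 587 ± 20.9 CPM, had a log2 fold change of 0.0041 with an interval from -0.066 to 0.075.

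Of the mitochondrial genes, 8 of 11 tested had a positive fold change, and their median was 0.052 on the log2 scale. mt-Co1 went the other way, at -0.080 (SE 0.029, unadjusted p = 0.00909, edgeR adjusted p = 0.542), and its groups overlapped. The other genes with many counts had log2 fold changes of 0.12 for mt-Nd1, 0.16 for mt-Nd2, 0.019 for mt-Nd4 and 0.059 for mt-Nd5. Those of mt-Nd6 and mt-Cytb were 0.20 and 0.063, and the edgeR adjusted p of all these genes ran from 0.734 to 0.956. All members of the mitochondrial genome together took 0.747 ± 0.0215% of counts in controls and 0.754 ± 0.0285% in ICSI-F2 (exact two-sided permutation test, p = 0.714). The nuclear members took 0.480 ± 0.0157% and 0.489 ± 0.00311% (exact p = 0.429). mt-Co1 was 49.8 ± 2.79% of the mitochondrial counts in controls and 47.0 ± 1.11% in ICSI-F2 (exact p = 0.143). Adjusted over these 3 shares the exact p were 0.714, 0.643 and 0.429, and the smallest that 4 against 4 can give is 0.0286. Both mitochondrial shares are uncertain as levels, because reads that also match nuclear copies may not have been counted. Shared windows were 97.8% or more in 5 genes, 61.5% in mt-Nd4 and 39.4% in mt-Co1. In whole tissue, fewer cells of a type and less RNA per cell cannot be told apart.

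**Figure D4:**
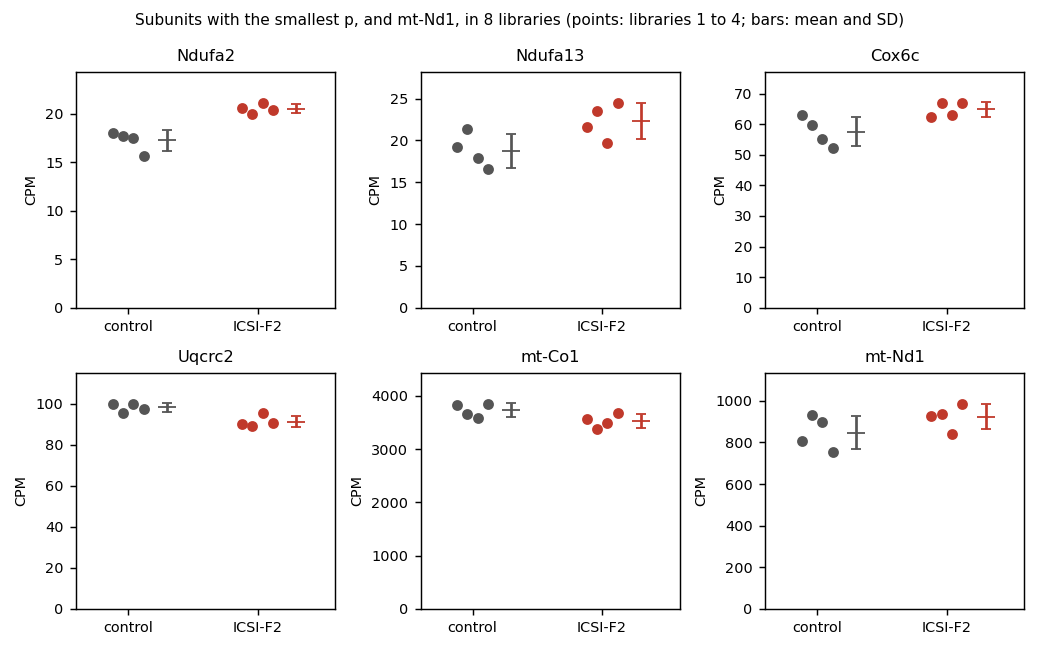
CPM per library (points, replicates 1 to 4 from left to right) with mean and SD of each group of 4 (bars) for Ndufa2, Ndufa13, Cox6c, Uqcrc2, mt-Co1 and mt-Nd1, on axes that start at 0. The groups do not overlap for Ndufa2 and Uqcrc2 and overlap for the other 4 genes.

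Among the controls, many subunit genes differed together between the code letters. Each library was placed by the median log2 difference of its 80 nuclear members from the mean of the 8 libraries. Control replicates 1 and 2, of code letter A, stood at 0.035 and 0.034, and control replicates 3 and 4, of code letter D, at -0.057 and -0.046. The 4 ICSI-F2 libraries stood between them, at 0.014, 0.011, 0.0086 and 0.025. Both A libraries lay above both D libraries for 40 of 80 nuclear members and below them for 3. Over all genes tested these shares were 20.5% and 20.3%. In ICSI-F2, both F libraries lay above both G libraries for 11 nuclear members (13.8%) and below them for 14 (17.5%), against 17.8% of all genes each way. The position of the mitochondrial members followed another order, from -0.15 in control replicate 4 to 0.091 in ICSI-F2 replicate 4.

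**Figure D5:**
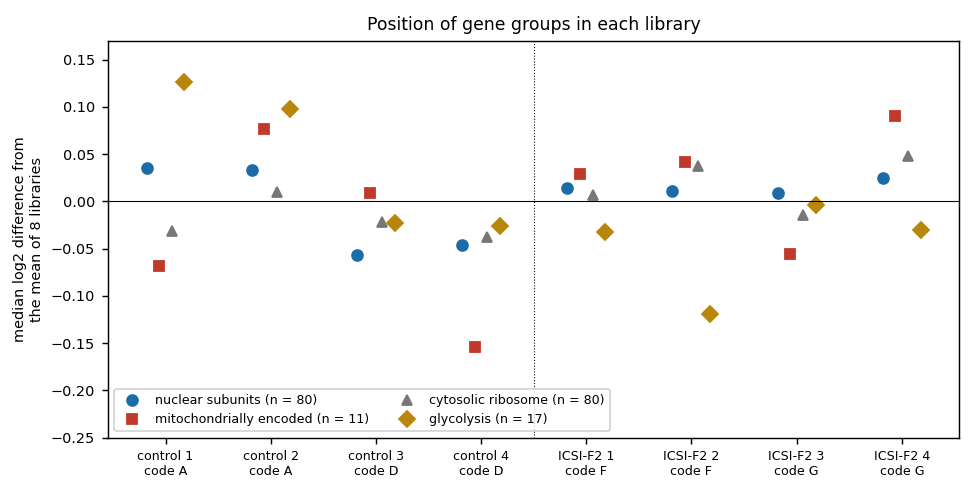
Median log2 difference from the mean of 8 libraries for nuclear subunits, mitochondrially encoded subunits, cytosolic ribosomal proteins and glycolytic enzymes, by library and code letter. The nuclear subunits lie above 0 in both code A controls, below 0 in both code D controls, and between in ICSI-F2.

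The median of the comparison moved with the controls that were used. Without the A libraries the nuclear median was 0.076, 70 of 91 members were above 0, and 21 (23.1%) had an unadjusted p under 0.05, against 6.45% of all genes. Without the A and G libraries the count was 21 of 90 (23.3%), against 5.7%, and without control replicate 2 alone it was 15 of 91 (16.5%), against 6.37%. Without the D library control replicate 3 the nuclear median was 0.0016 and 50 of 91 members were above 0, and without control replicate 4 it was 0.012 with 51 above. No member passed the adjusted test in any of these fits, and the smallest adjusted p without the A libraries was 0.0914, for Cox6c. Posterior neural markers, among them Hox genes, summed to 68.2 and 35.4 CPM in control replicates 1 and 2 and to 0.683 to 6.28 CPM in the other 6 libraries, with Hoxc8 at 0 counts throughout. Markers of meninges summed to 366 CPM in both code G libraries and 262 to 288 CPM elsewhere. Of the liver markers, Alb had 10.4 and 20.2 CPM and Afp 2.91 and 6.22 CPM in the code G libraries, and neither exceeded 0.144 CPM elsewhere. The sum of all 4 liver markers, 272 to 443 CPM, was mostly Ttr, which the choroid plexus is also known to make. The sums were, for blood markers, 8.74 to 13.2 CPM in controls and 15.2 to 17.1 CPM in ICSI-F2, and for neuron markers 4530.2 to 4700.3 and 4367 to 4467 CPM. Among the neuron markers, Dcx ran from 1746.5 to 1811.1 CPM in controls and from 1636.4 to 1713.3 CPM in ICSI-F2. Snap25, Stmn2, Syt1 and Tubb3 each overlapped between the groups. The part of these markers, and of the code letter, in the subunit values was not tested.

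The nuclear members had a median coefficient of variation of 5.52% within groups and 5.74% over the 8 libraries. Each member's log2 CPM, less the group means, was compared with the median of the other nuclear members over the 8 libraries, as a description, since all points share depth and library. The median r was 0.43, and 65 of 80 were above 0. The most alike were Cox7a2 at 0.92, Cox4i1 at 0.91 and Sdha at 0.91, and the least alike was Ndufb4 at -0.58. Among the mitochondrial genes, r was taken without removing the group means, so differences between the groups enter it. mt-Nd1, mt-Nd2, mt-Nd4, mt-Nd5, mt-Nd6 and mt-Cytb then had r of 0.63 to 0.97 with each other. mt-Co1 had r of -0.57 to -0.19 with each of these.

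The NRF1 letters stand both in Sdha and in Ndufb4, near the ends of this order, as the sequences above show, but not in Cox7a2. RefSeq promoter windows of 300 bases, 250 before to 50 after the start, were matched for 68 of 84 nuclear members (81.0%), 73 windows in all. The core letters of the NRF1 motif, CGCNTGCGC on either strand, were in 21 windows of 20 genes (28.8%), against 6.25% of all 32851 windows and 8.58% of those of protein-coding genes. CCGGAAGT, the letters of ETS factors such as GABPA, was in 6.85%, against 3.89% of all windows and 5.145% of those of protein-coding genes. AAGATGGCG, of YY1, was in 9.59%, against 1.40% and 1.83% in the same order. TATAAA, of the TATA box, was in 12.3%, against 13.6% and 12.6%. Among the matched genes with the smallest p of each complex, Ndufa6, Sdhd, Uqcrc1 and Atp5k hold the NRF1 letters, and Ndufa13, Sdhb, Cox8a, Cox7a1, Atp5j2 and Atp5g1 do not. The NRF1 and YY1 letters were first searched with 1 more letter and shortened after that outcome was seen; the longer ones were in 24.7% of the members' windows against 4.60% of all, and in 6.85% against 0.852%. A match is a description of letters, not of a bound site.

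Other genes of the pathway were read from the same fit, in lists chosen with earlier results of these data known, and none of their genes passed the adjusted test. Counts above 0 in these lists stand beside 50.4% of all genes tested. The complex I assembly factors had 11 of 16 genes above 0 and 1 (6.25%) with an unadjusted p under 0.05, against 7.3% of all genes. That gene was Foxred1, with a log2 fold change of 0.17 (edgeR adjusted p = 0.658). Of the complex IV assembly factors 13 of 22 were above 0, and Cox16, a factor of the inner membrane, had 21.3 ± 1.39 CPM in controls and 25.4 ± 1.21 CPM in ICSI-F2 (log2 fold change 0.26, adjusted p = 0.427). Factors for complexes II, III and V had 8 of 12 above 0. Atpif1, the inhibitor protein of ATP synthase, had 114 ± 5.94 and 124 ± 2.62 CPM (log2 fold change 0.12, adjusted p = 0.539). Genes of mitochondrial transcription and its regulators had 13 of 20 above 0, the quinone-linked dehydrogenases 11 of 18, and protein import 8 of 20.

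Mitochondrial ribosomal proteins, which translate the mitochondrial genes, had 55 of 78 above 0, with a median of 0.047. At an unadjusted p under 0.05 there were 4 (5.13%), against 7.3% of all genes, and all 4 had a positive fold change. Their smallest p belonged to Mrps23, at 0.27 on the log2 scale (edgeR adjusted p = 0.427). The TCA cycle had 6 of 17 above 0. It had 3 genes (17.6%) with an unadjusted p under 0.05 and a negative fold change, against 3.37% of all genes. Carriers of adenine nucleotides and phosphate had 6 of 13 above 0, with the smallest p for the channel gene Vdac2 (log2 fold change -0.093, adjusted p = 0.658). Glycolysis had 2 of 17 above 0 and a median of -0.094. It had 7 genes (41.2%) with an unadjusted p under 0.05 and a negative fold change, against 3.37% of all genes, and none with a positive one. Among them was Eno1 (log2 fold change -0.11, adjusted p = 0.539). The library positions of glycolysis were 0.13 and 0.098 in the A controls and -0.12 to -0.0040 in the other 6 libraries. Cytosolic ribosomal proteins had 59 of 80 above 0, and 18 (22.5%) had an unadjusted p under 0.05, 17 of them with a positive fold change, against 7.3% of all genes. Their smallest p belonged to Rps24 (log2 fold change 0.14, edgeR adjusted p = 0.427).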

How the data were processed

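The authors deposited raw counts for each gene and library, which were not normalized or pooled. Per the submitters' processing notes, bcl2fastq 2.20, cutadapt 3.4, HISAT2 2.2.1 and HTSeq 2.0.2 were used with build mm10. Per the labels, reads were single and 76 bases long, from stranded mRNA libraries, whose kit the series text and the sample protocols name differently. The sources used here do not give the annotation release, the strand setting or the handling of reads with several placements.

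Groups were taken from sample titles, and replicates were numbered in order of deposition. Gene positions and lengths came from GENCODE M21 on GRCm38, the same build, where 32235 of 32285 identifiers were found. The 15565 genes passing filterByExpr were compared between groups, with no other term, by the robust quasi-likelihood test of edgeR 4.0.16 (R 4.3.3), and p-values were adjusted by Benjamini-Hochberg with a threshold of 0.05. CPM were computed with TMM factors of 0.989 to 1.01. The test was checked on simulated data; with dispersions drawn gene by gene, more calls were false than the threshold allows, and with dispersions from the trend about as many. Shared sequence was counted as windows of 76 bases found unchanged, on either strand, in transcripts of other genes. Intervals of fold changes are 95%.

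Genes were named by rule: any member past the adjusted threshold, the 3 nuclear members with the smallest p in each complex, all mitochondrial members, fixed paralog sets, the highest and lowest per complex, and the smallest p of each other list. One gene so named is not reported here. Ndufb11 and Sdha, the promoters and stretches printed, the motif letters and the fold bounds were chosen after values were seen. The members and lists were chosen with earlier results of these data known. Alternatives covered normalization, filters, DESeq2 1.42.0, limma 3.58.1 with voom, the code letter and each library left out. Sequences are from RefSeq (GRCm38.p6) and the M21 transcripts.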

Additional observations from a re-analysis of the deposited data

Results flagged for a closer look

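Each group of 4 libraries was searched for a library far from the other 3 by Dixon's ratio, over the 91 tested members and 2 shares of counts. Of 186 groups, 5 passed its 95% critical value, and chance gives about 1 in 20. Ndufb9, an accessory subunit of complex I, had 41.2 CPM in control replicate 2 against 36.4 to 37.03 CPM in the other controls. Ndufa10, another such subunit, had 67.9 CPM in the same library against 63.98 to 64.6 CPM. Cox5b, a zinc-binding subunit of complex IV, had 50.4 CPM in control replicate 4 against 59.9 to 61.6 CPM. In the ICSI-F2 group, Ndufs5 of complex I had 21.3 CPM in replicate 3 against 23.4 to 23.8 CPM, and Atp5md of complex V had 54.6 CPM in replicate 4 against 42.7 to 43.9 CPM. Low Atp5k and Uqcrb in control replicate 4, given above, did not pass this value.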

How the results depend on the processing

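No paired analysis was possible because replicate numbers follow the order of deposition and pair no samples. Members called stayed at 0 in all 21 alternatives. Of all genes, 1 was called higher and 0 lower. Without a filter on low counts these became 35 and 15, with code letters as separate means 14 and 9, and with DESeq2 4 were higher. Without the code letter A libraries they were 4 and 2, and without the A and G libraries 3 and 5. Leaving out 1 library gave 1 to 9 higher and 0 to 2 lower. The cause of these shifts was not tested. The median log2 fold change of nuclear members, 0.028, became 0.076 without the A libraries and 0.059 without A and G, and ran from 0.0016 (without control replicate 3) to 0.043 (without control replicate 2) when 1 library was left out. The median nuclear level of 126 TPM became 135 by the longest transcript and 151 by the principal transcript, the latter chosen after the data were seen; both lengths differ by construction. Of the members named by rule that were tested, none passed the threshold in any alternative, and up to 6 of 42 changed sign per setting. Most of these lay near 0, but Ndufa4l2 (-0.16) reached 0.027, mt-Co2 (-0.12) 0.0052, Atp5g1 (-0.087) 0.0074 and Cox4i2 (-0.083) 0.36. Depth limits Cox4i2 and Cox7a1, at under 2 CPM, and the 6 members not tested.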
